A study of Mus musculus with 41 samples.

Results

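The EGR transcription factors and NAB corepressors were followed in sorted mouse testis cells labelled wild-type or null for the X-linked homeobox factor RHOX10. They were also followed in cultured germline stem cells that carried a RHOX10 fusion or an empty vector. The set holds 6 genes, Egr1, Egr2, Egr3, Egr4, Nab1 and Nab2, of 55536 genes in each of the 2 count tables, and was taken by gene symbol. All 6 passed the filter on low counts in both assays. The set was chosen on measured values: Egr3 was known to fall in the iSLAM-seq contrast of Rhox10 against Ctrl and in its change from 0 h, so the iSLAM-seq values below are a description with no test. The earlier results known when the set was chosen named Egr3 alone of the members, in iSLAM-seq, so the RNA-seq comparison of genotypes is tested.

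EGR proteins are zinc-finger transcription factors encoded by immediate-early genes, which are switched on within minutes of a growth factor signal through ERK kinases and the factors SRF and ELK1. NAB1 and NAB2 bind EGR1, EGR2 and EGR3 through a short inhibitory domain that EGR4 lacks, and recruit the NuRD chromatin remodeller to dampen EGR target genes. Nab2 is itself an EGR target, which closes a feedback loop. In the male germline, loss of Egr4 leaves mice infertile with defective germ cells, and Egr2 and Egr3 are among genes that answer to the niche factor GDNF in cultured spermatogonial stem cells.

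RNA-seq was made from eGFP-positive cells sorted from testes of C57BL/6 mice crossed with an OCT4-eGFP reporter line. It has 4 wild-type libraries and 4 libraries labelled Rhox10-null, each from the testes of 3 pooled animals. The age of the animals is not given in the sources used here. iSLAM-seq, a 3′ end RNA-seq of cells with an inducible factor and metabolic RNA labelling, was made from C57BL/6 germline stem cells cultured from neonatal testes. Every iSLAM-seq culture, controls included, carried a lentiviral shRNA against endogenous Rhox10. The Rhox10 cultures also carried a Rhox10-ERT2-mCherry fusion that responds to 4-hydroxytamoxifen, and the Ctrl cultures an ERT2-mCherry empty vector. There are 2 biological replicates for each vector at 0, 0.5, 1, 2, 4 and 8 h, 24 libraries in all. Whether the counts are of all reads or of reads with label-induced conversions is not given in the sources used here, nor is whether Ctrl cultures received 4-hydroxytamoxifen. CUT&Tag, which maps where a bound factor sits on DNA, used HA-tagged Rhox10 in knocked-down germline stem cells, in 3 replicates, with IgG and HA empty-vector cultures as controls. Its single table of merged peaks was used.

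The 8 RNA-seq libraries held 6602089 to 8278887 counts, of which the gene Gm42418 took 51.0% to 59.4%, and the 24 iSLAM-seq libraries held 9419615 to 12645845. Rhox10 itself had 3 to 10 counts in the wild-type group and 4 to 11 in the group labelled null, so these counts do not check the genotype, and directions are those of the labels. In iSLAM-seq Rhox10 ran from 0.202 to 2.42 CPM (counts scaled to a common library size) in Ctrl and from 34.0 to 46.7 CPM in Rhox10 libraries at all times, 0 h included. Some libraries stood apart from their replicates. The chi-square per degree of freedom between replicates was 26.6 for the Ctrl 0.5 h pair, against at most 4.57 for the other iSLAM-seq pairs. It was 4.02 to 4.49 for null replicate 4 against the other null libraries, against at most 2.71 for the remaining RNA-seq pairs. Germ cell markers were present in both assays. In RNA-seq the summed CPM of 10 germ cell markers was 274 to 281 in wild-type and 120.3 to 130.01 in libraries labelled null. The sums for other cells, wild-type first, were 419.6 to 443 and 672 to 708 for 5 stromal markers, 316 to 337 and 364 to 386 for 6 Sertoli markers, and 65.7 to 69.9 and 80.5 to 86.4 for 5 Leydig markers. They were 23.9 to 29.2 and 35.8 to 40.4 for 4 endothelial markers, 16.8 to 18.8 and 21.9 to 23.9 for 4 macrophage markers, and 1.36 to 3.90 and 66.2 to 72.8 for 5 erythroid markers. In iSLAM-seq the germ cell sum was 2002 to 2708 in Ctrl and 2034 to 2346 in Rhox10, and the stromal sum 934 to 1560.5 and 1155 to 1971. Sertoli sums were 183 to 443 and 236 to 555 there with Amh at 0, and the Leydig (Insl3 and Hsd3b1 at 0), endothelial, macrophage and erythroid lists summed to at most 46.8 in any library.

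In the sorted cells, Egr4 was 3.05-fold lower and Nab2 1.39-fold lower in the libraries labelled null, Egr1 was 1.11-fold higher, and Egr2, Egr3 and Nab1 did not pass the test. Thus 1 of 6 members was called higher, against 18.6% of the 13538 genes tested, and 2 of 6 were called lower, against 18.9%. The share called higher was close to its background and the share called lower was above it. A set of 6 genes is too small to read such shares further. The median of the 6 log2 fold changes was -0.05, against 0.00 over every gene tested. Values are CPM after TMM scaling, and calls are at an adjusted p under 0.05 in edgeR's two-sided quasi-likelihood test. Fewer cells of a type and less RNA per cell cannot be told apart in such bulk samples, and the p-values measure the spread between pools of animals.

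Egr4 (chromosome 6, 85511121 to 85513589, minus strand, GRCm38), the family member whose loss is known for its germ cell defect, showed the largest difference. It was at 13.4, 13.8, 17.5 and 15.2 CPM in wild-type libraries 1 to 4 and at 3.49, 4.37, 5.77 and 6.06 CPM in those labelled null. Every library labelled null was below every wild-type library. The log2 fold change was -1.61 (standard error 0.136, edgeR adjusted p = 5.74e-13), and it ran from -1.72 to -1.46 when each library was left out in turn. The fall held under other scalings, with -1.26 by library totals and -0.74 when libraries were scaled to a list of germline genes.

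Egr4 was also the only member with a RHOX10 peak named for it. The authors' merged peak (chr6:85513318-85513937, mm10, 620 bases) was annotated as its promoter, 85 bases before the start site, and has a score of 141.2 in the authors' list of 5147 peaks, where the median is 127.5. Among the genes tested in RNA-seq, 27.2% had such a peak within 3 kb of a start site, and among those tested in iSLAM-seq 19.8%. No peak lay within 100 kb of the start sites of Egr1, Egr3, Nab1 or Nab2. Within that distance of Egr2 the single peak was 13742 bases downstream, at the promoter of the neighbouring gene Ado. The 250 bases before the RefSeq start of Egr4 (GRCm38.p6, chr6:85513590-85513839, minus strand) lie wholly inside the peak and are shown because Egr4 is the member with a peak. The peak was mapped in cultured cells, and its part in the fall of Egr4 in sorted cells was not tested.

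Egr4 promoter: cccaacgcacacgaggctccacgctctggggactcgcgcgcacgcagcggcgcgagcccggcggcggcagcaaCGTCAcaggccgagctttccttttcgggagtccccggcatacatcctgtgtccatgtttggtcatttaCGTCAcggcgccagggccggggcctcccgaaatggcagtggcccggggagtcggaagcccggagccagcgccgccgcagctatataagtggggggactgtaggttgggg

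Capitals mark 2 matches to TGACG, the core of a cAMP response element, read on the other strand as CGTCA, at 177 and 109 bases before the start. That core was found on either strand in 20.9% of 32544 promoter windows of the same RefSeq table. The window held neither the EGR element GCGNGGGCG, found in 5.6% of all windows, nor a CArG box, the SRF element, found in 1.64%. A match is a string of letters and not a bound site.

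Nab2 (chromosome 10, 127660918 to 127668568, minus strand), the inducible corepressor, was at 18.5, 20.4, 19.7 and 18.2 CPM in wild-type and at 12.6, 14.6, 13.9 and 14.3 CPM in libraries labelled null. The groups did not overlap, and the log2 fold change was -0.47 (standard error 0.0896, edgeR adjusted p = 4.33e-05). Unlike that of Egr4, the direction depended on the scaling: the value was -0.13 by library totals (adjusted p = 0.239) and 0.40 under scaling to the germline list (adjusted p = 0.000173). Those scalings moved the median over the whole table to 0.35 and 0.87, and 7229 and 12111 genes were then called higher with 629 and 74 lower.

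Egr1 (chromosome 18, 34859823 to 34864984, plus strand), the most abundant member, was at 299.9, 303, 289 and 287 CPM in wild-type and at 330.4, 331, 325 and 327 CPM in libraries labelled null. The groups did not overlap, but the difference was small, 0.15 on the log2 scale (standard error 0.0424, edgeR adjusted p = 0.00354). It was 0.50 by library totals and 1.02 under the germline scaling, where the median over all genes was 0.35 and 0.87.

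Egr3 (chromosome 14, 70077203 to 70082614, plus strand) was at 4.96, 5.52, 5.76 and 5.29 CPM in wild-type and at 6.66, 6.75, 6.61 and 5.79 CPM in libraries labelled null. The groups did not overlap, with null replicate 4 at 5.79 and wild-type replicate 3 at 5.76 CPM as the closest, and the log2 fold change of 0.27 did not pass the test (standard error 0.147, edgeR adjusted p = 0.164). Its interval of -0.02 to 0.55 (95%, from the standard error) rests on 33 to 61 counts per library. It passed by library totals, at 0.61 (edgeR adjusted p = 0.00043), and under the germline scaling, at 1.14. Those scalings also moved the median over all genes, to 0.35 and 0.87.

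Egr2 (chromosome 10, 67535475 to 67542188, plus strand), which has a role in Schwann cell myelination outside the germline, ran from 16.7 to 17.1 CPM in wild-type and from 15.4 to 17.5 CPM in libraries labelled null. The null range enclosed the wild-type one, with a log2 fold change of -0.02, an interval of -0.19 to 0.15 and an edgeR adjusted p of 0.907. Nab1 (chromosome 1, 52457294 to 52500679, minus strand), the other corepressor, ran from 16.1 to 18.7 and from 15.0 to 17.9 CPM. The ranges overlapped, with a log2 fold change of -0.09, an interval of -0.27 to 0.08 and an edgeR adjusted p of 0.444. Both signs turned under the other scalings, to 0.33 and 0.26 by library totals and to 0.85 and 0.78 under the germline list. Both genes passed the test in each. The median over all genes moved up as well, to 0.35 and 0.87.

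**Figure D1:**
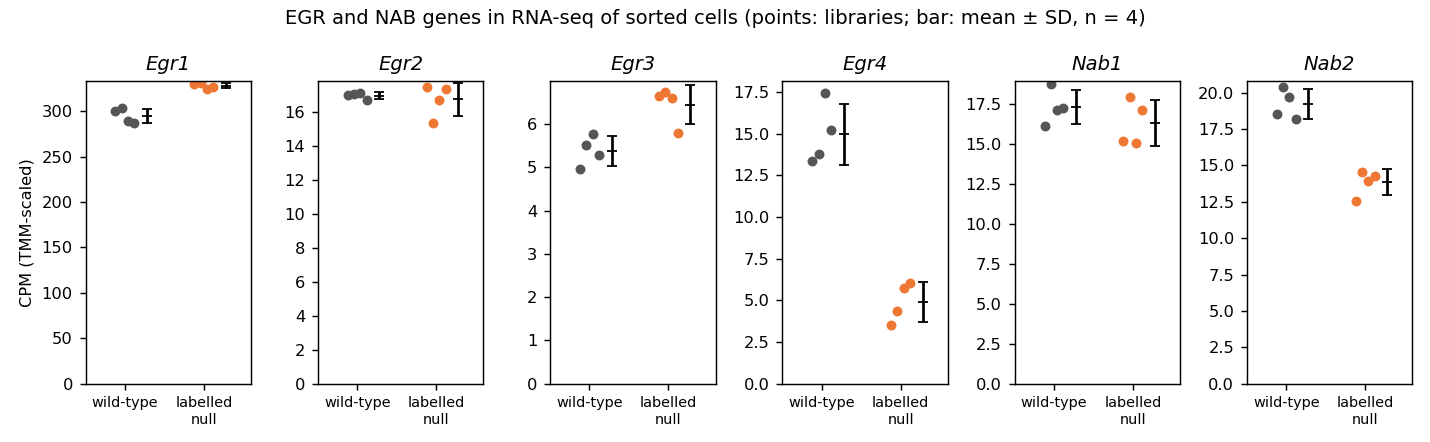
CPM (TMM-scaled, y axis) of each member in the 4 wild-type libraries and the 4 libraries labelled null, with the mean and SD beside the points. Egr4 sits at 13.4 to 17.5 CPM in wild-type and at 3.49 to 6.06 CPM in the libraries labelled null, Nab2 is lower without overlap, and the other members differ little.

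Divided by exon length, the RNA-seq levels gave the members an order. In wild-type libraries Egr1 stood at 65.7 ± 1.76 CPM per kb (SD, n = 4), far above Egr4 at 6.97 ± 0.855 (SD, n = 4), Nab2 at 6.52 ± 0.350 (SD, n = 4), Egr2 at 4.99 ± 0.0553 (SD, n = 4), Nab1 at 4.22 ± 0.263 (SD, n = 4) and Egr3 at 1.22 ± 0.0774 (SD, n = 4). The neighbours Egr4 and Nab2 overlapped library by library and are not ordered beyond their spread. In libraries labelled null Egr1 was at 73.2 ± 0.651 CPM per kb (SD, n = 4) and Egr4 had dropped to 2.29 ± 0.560 (SD, n = 4), below Egr2 at 4.92 ± 0.285 (SD, n = 4), Nab2 at 4.70 ± 0.302 (SD, n = 4) and Nab1 at 3.97 ± 0.345 (SD, n = 4) and still above Egr3 at 1.46 ± 0.102 (SD, n = 4). Egr2 and Nab2 overlapped there, as did Nab2 and Nab1.

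The genes around the EGR factors were read from lists of the pathway. Of 26 tested immediate-early genes other than the EGR genes, 16 were higher and 0 lower in libraries labelled null, with a median log2 fold change of 0.37. The largest were Fosl2 (0.75), an AP-1 subunit, Klf2 (0.75), a zinc-finger factor, and the orphan nuclear receptors Nr4a3 (0.72) and Nr4a2 (0.72). By library totals 24 were higher and 0 lower, and under the germline scaling 25 were higher and 0 lower. Those scalings raised the median over all genes to 0.35 and 0.87, so they cannot check a rise. Egr4 was lower and Egr1 higher under each of these scalings, while the direction of Nab2 depended on the scaling. Stromal, endothelial and erythroid markers were higher in the same libraries, and their part in these rises was not tested.

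Of 7 GDNF-responsive genes, 5 were lower and 0 higher, with a median of -0.97. Pou3f1 (-1.74), Bcl6b (-1.19), T (-1.15) and Lhx1 (-0.97), all transcription factors, fell most. By library totals the same counts were seen, while under the germline scaling 1 was lower and 2 were higher. The germ cell markers of the sum above moved with these falls and with that of Egr4: 9 of 10 were lower and 0 higher. Their median was -1.01 and their range -1.66 to -0.07, with the Egr4 value of -1.61 near its low end. Under the germline scaling 5 of these markers were lower and 1 higher, with a median of -0.14, and Egr4 was at -0.74. Ddx4, Dazl and Sall4 are in both the marker list and the scaling list, so the scaling itself draws this median towards no change. The part of the germ cell markers in the fall of Egr4 was not tested. Of 11 ERK output genes, 2 were higher and 3 lower, among them the ETS factor Etv4 (-1.60) and the ERK phosphatase gene Dusp5 (-0.65) lower and Dusp4 (0.75) higher. None of 6 SRF and TCF regulators was called at this threshold by edgeR with TMM scaling, but 4 were higher by library totals. Of 13 NuRD subunits, the complex that NAB proteins recruit, 2 were higher and 5 lower, with Gatad2a at -0.42 and Chd3 at 0.38. All 13 were higher under the germline scaling.

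In cultured germline stem cells with the Rhox10 fusion, Egr1, Egr2 and Egr3 were far below the empty vector from 4 h on, and Nab2 at 8 h. At 0 h the vectors already differed, most for Egr3, which was lower in Rhox10. Egr2 (log2 fold change -0.37) and Egr4 (-0.12) were also lower there and Egr1 (0.16) and Nab2 (0.30) higher, each without overlap between the vectors. With all libraries fitted, Egr3 alone of the members was called at 0 h. The share of all genes without such overlap was not counted. At 4 h Egr3 was 4.31-fold, Egr2 3.60-fold and Egr1 3.16-fold lower in Rhox10 than in Ctrl libraries. At 8 h Nab2 had also come to lie 2.24-fold lower, while Nab1 was slightly higher at every time but 0 h, where the vectors overlapped. These contrasts chose the set, so they carry no p.

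**Figure D2:**
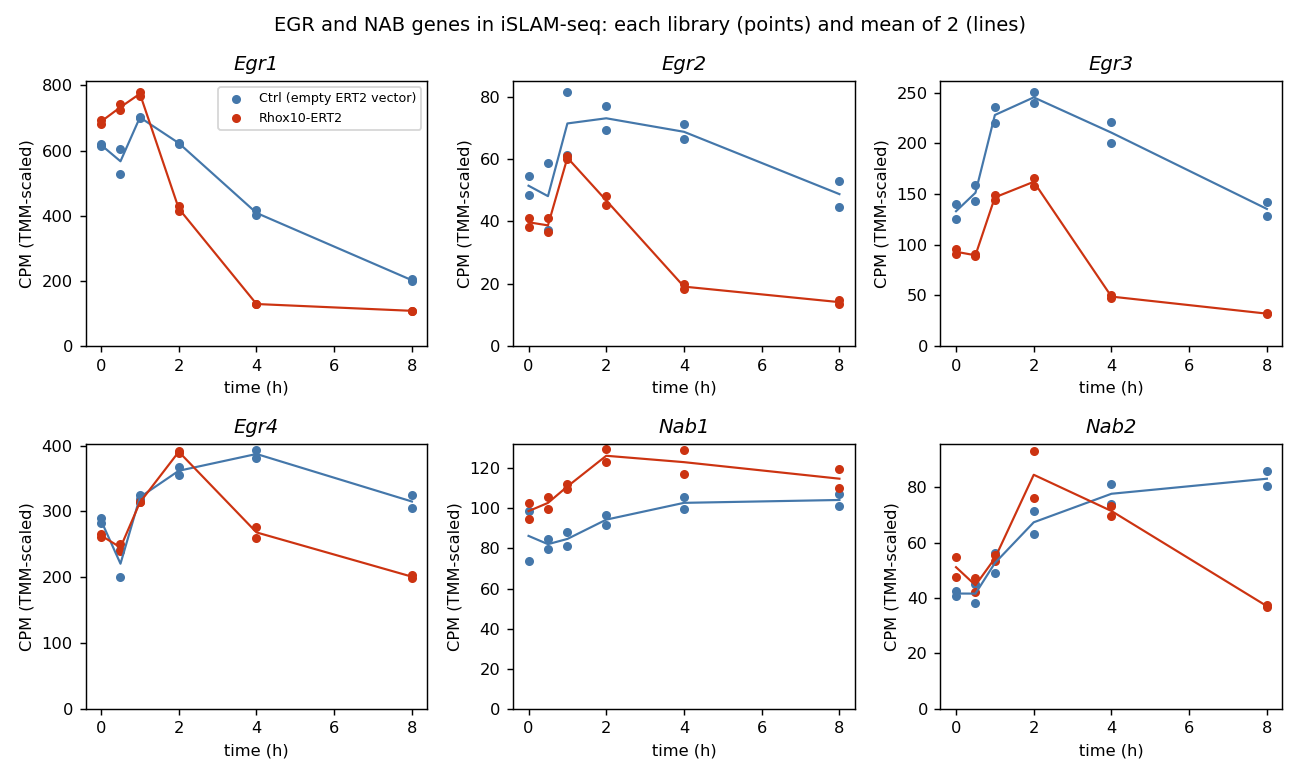
CPM (TMM-scaled, y axis) against time in hours (x axis) for each member, with each library as a point and the mean of 2 libraries as a line, in Ctrl (blue) and Rhox10-ERT2 (red). Egr1, Egr2 and Egr3 in Rhox10 libraries drop steeply from 2 to 4 h, to 128 to 129.8, 18.3 to 19.8 and 47.7 to 49.98 CPM.

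Egr1 began high and fell in both vectors. In Ctrl its 2 libraries were at 619.8 and 614 CPM (0 h), 606 and 528 (0.5 h), 700.2 and 703 (1 h), 624 and 621 (2 h), 401 and 416 (4 h), 204 and 199.7 (8 h). In Rhox10 they were at 695 and 683 CPM (0 h), 725 and 741 (0.5 h), 779.6 and 769 (1 h), 430.5 and 413 (2 h), 128 and 129.8 (4 h), 108.4 and 108.0 (8 h). The vectors did not overlap at any time: Rhox10 was above Ctrl up to 1 h and below it from 2 h. From 0 to 8 h Egr1 fell by 1.61 on the log2 scale in Ctrl (standard error 0.0609) and ended at -2.67 in Rhox10 (standard error 0.0637). Thus much of its decline was also seen with the empty vector.

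Egr3 was highest at 2 h in both vectors, which then separated further. In Ctrl it was at 126 and 140.5 CPM (0 h), 143 and 159 (0.5 h), 220.3 and 236 (1 h), 250.5 and 240.1 (2 h), 221 and 200.2 (4 h), 129 and 142 (8 h). In Rhox10 it was at 90.5 and 95.6 CPM (0 h), 88.7 and 90.4 (0.5 h), 149 and 144 (1 h), 166 and 158 (2 h), 47.7 and 49.98 (4 h), 31.2 and 32.8 (8 h). Every pair of Rhox10 libraries lay below its Ctrl pair at all 6 times. The Ctrl course came back to its start, with a log2 fold change of 0.02 at 8 h against 0 h (standard error 0.0850), while Rhox10 ended at -1.54 (standard error 0.0927). Egr3 was the member with the largest difference between vectors at 0 h (log2 fold change -0.52, standard error 0.0860), 4 h (-2.11, 0.0895) and 8 h (-2.08, 0.0928).

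Egr2, a close relative of Egr3, took a similar course. In Ctrl it was at 54.4 and 48.4 CPM (0 h), 58.8 and 37.3 (0.5 h), 81.6 and 61.2 (1 h), 69.2 and 76.9 (2 h), 66.3 and 71.1 (4 h), 52.8 and 44.7 (8 h). In Rhox10 it was at 41.1 and 38.3 CPM (0 h), 36.4 and 41.0 (0.5 h), 59.8 and 60.9 (1 h), 45.3 and 48.1 (2 h), 19.8 and 18.3 (4 h), 13.5 and 14.7 (8 h). Rhox10 lay below Ctrl at 5 of the 6 times and overlapped it at 0.5 h, where the Ctrl pair was widest. The log2 fold change between vectors went from -0.37 at 0 h (standard error 0.164) to -1.85 at 4 h (0.171) and -1.79 at 8 h (0.179). The 250 bases before a RefSeq start of Egr2, upstream of its main transcript and within an intron of longer ones (GRCm38.p6, chr10:67537619-67537868, plus strand) are shown because they hold the element by which serum and growth factors act on immediate-early genes.

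Egr2 promoter: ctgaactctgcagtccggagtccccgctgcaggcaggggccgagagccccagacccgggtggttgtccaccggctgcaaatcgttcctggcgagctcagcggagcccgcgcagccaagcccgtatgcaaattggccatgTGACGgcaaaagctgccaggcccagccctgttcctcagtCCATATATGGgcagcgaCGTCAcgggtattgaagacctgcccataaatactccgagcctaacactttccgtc

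Capitals mark a CArG box 72 bases before the start and 2 TGACG cores, 1 on each strand, at 111 and 55 bases before it. No EGR element was found in this window. A CArG box is held by 1.64% of all promoter windows, but this window was picked from several of Egr2 because it holds one. The share is thus no measure of rarity here. The Egr2 window nearest the annotated start of the gene held neither a CArG box nor a TGACG core.

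Egr4 differed less between vectors. In Ctrl it was at 282 and 290.0 CPM (0 h), 241 and 200.3 (0.5 h), 318 and 325 (1 h), 356 and 368 (2 h), 381 and 393 (4 h), 305 and 326 (8 h). In Rhox10 it was at 266 and 260.4 CPM (0 h), 240.6 and 249.9 (0.5 h), 313.8 and 313.7 (1 h), 392 and 389 (2 h), 259.7 and 276 (4 h), 203 and 198 (8 h). Both vectors were lower at 0.5 h than at 0 h, by -0.38 on the log2 scale in Ctrl and -0.10 in Rhox10. Neither fall was called, and the Ctrl 0.5 h pair is the one that stood apart. Both vectors were higher at 2 h than at 0 h. Rhox10 was slightly above Ctrl at 2 h (0.11, standard error 0.0717), a difference that was not called. Ctrl was highest at 4 h, and Rhox10 lay below it at 4 and 8 h. The log2 fold change was -0.53 at 4 h (standard error 0.0722) and -0.65 at 8 h (0.0728). Egr4 was thus lower in sorted cells labelled null and also, at these late times, lower in cultures that carried the fusion.

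The NAB corepressor genes behaved differently from each other. Nab2 in Ctrl was at 40.8 and 42.5 CPM (0 h), 45.0 and 38.2 (0.5 h), 56.3 and 49.0 (1 h), 63.2 and 71.5 (2 h), 81.3 and 74.1 (4 h), 80.5 and 85.8 (8 h). In Rhox10 it was at 54.8 and 47.5 CPM (0 h), 42.2 and 47.1 (0.5 h), 55.4 and 53.3 (1 h), 76.1 and 93.0 (2 h), 69.6 and 73.4 (4 h), 37.3 and 36.9 (8 h). Nab2 thus climbed with time in Ctrl, to a log2 change of 1.00 from 0 h to 8 h (standard error 0.122), and in Rhox10 it rose to 2 h and had dropped below its start by 8 h. Its difference between vectors came later than those of Egr1, Egr2 and Egr3: at 4 h the difference between vectors was still -0.12 (standard error 0.119), and at 8 h it was -1.16 (0.124).

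Nab1 moved little. In Ctrl it was at 98.6 and 73.9 CPM (0 h), 79.6 and 84.7 (0.5 h), 81.2 and 88.3 (1 h), 96.9 and 91.9 (2 h), 99.9 and 106 (4 h), 101 and 107 (8 h). In Rhox10 it was at 103 and 94.7 CPM (0 h), 106 and 99.8 (0.5 h), 109.6 and 112 (1 h), 129 and 123 (2 h), 129 and 117 (4 h), 119.5 and 110.1 (8 h). Rhox10 lay above Ctrl at 5 of the 6 times and overlapped it at 0 h. The log2 fold change between vectors was at most 0.42, at 2 h (standard error 0.106), and 0.14 at 8 h (0.107). Promoter windows of Egr2, Egr4, Nab1 and Nab2 were searched, and none was searched for Egr1 or Egr3. The Nab2 window (chr10:127666704-127666953, minus strand) lay inside the gene, whose annotated start is at 127668568. The bases before that annotated start were not searched. Of the windows searched, only that of Nab1 held EGR elements. They are shown as 3 pieces of 30 bases (GRCm38.p6, minus strand, chr1:52500570-52500599, chr1:52500538-52500567 and chr1:52500467-52500496), because EGR proteins bind this element.

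Nab1 element 1: gccccgcggcCGCCCACGCcgggatctgcg
Nab1 element 2: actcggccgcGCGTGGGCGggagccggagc
Nab1 element 3: gcggggcgggGCGGGGGCGgcggaggtggc

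Capitals mark matches to GCGNGGGCG, the first on the other strand, 141, 109 and 38 bases before the start. The Nab1 window is 81.7% G and C against a median of 53.0% over all windows, and the element is itself made almost wholly of G and C.

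**Figure D3:**
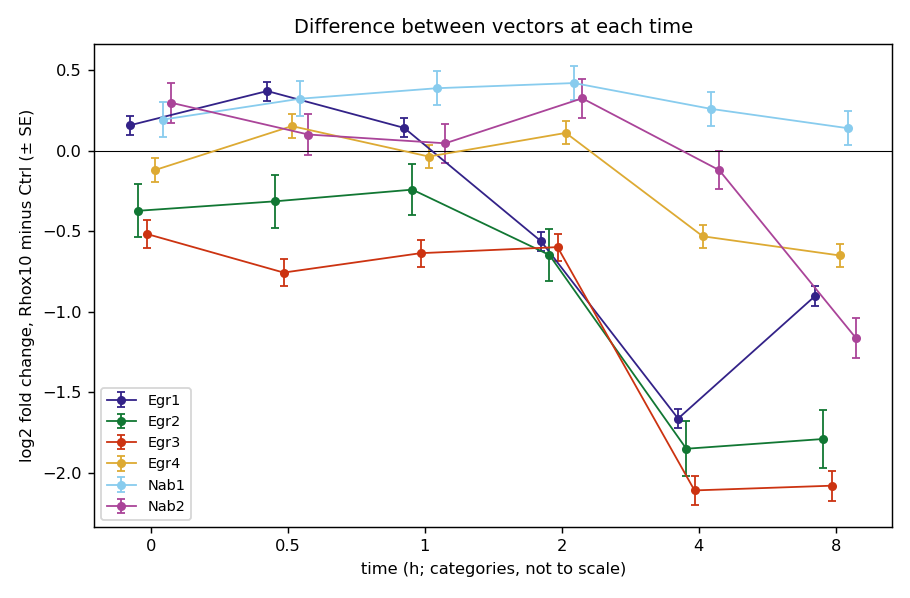
Log2 fold change of Rhox10 minus Ctrl (y axis, bars are standard errors) of each member at each time (x axis, categories). Egr1, Egr2 and Egr3 lie at -1.66, -1.85 and -2.11 at 4 h, Nab2 joins them at 8 h with -1.16, and Nab1 stays between 0.14 and 0.42.

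Over all times the fits gave the same picture in counts, read here with their backgrounds and with no inference from them, since these contrasts chose the set. At 0 h 0 of 6 members were called higher (background 6.56% of 20642 genes) and 1, Egr3, was called lower (background 4.32%). In the average of Rhox10 minus Ctrl over 0.5 to 8 h 1 of 6 was called higher, Nab1 at 0.31, against a background of 18.7%. The other 5 were called lower, against 18.4%: Egr3 at -1.24, Egr2 at -0.97, Egr1 at -0.52, Egr4 at -0.19 and Nab2 at -0.16. The average joins times of opposite sign for Egr1, Egr4 and Nab2, and Nab2 was not called in 10 of the 24 fits that left out 1 library. Between vectors, 5 of 6 members, all but Nab1, changed their difference from 0 h (background 2.39%). Over time in Ctrl alone the same 5 were called (background 5.74%).

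The Ctrl 0.5 h libraries, which stood apart, bear on the averages and on calls at 0 h. With that time left out the averages were -0.73 for Egr1, -1.12 for Egr2, -1.34 for Egr3, -0.26 for Egr4, 0.31 for Nab1 and -0.22 for Nab2. Without it 4 members were called at 0 h, Egr2 and Egr3 lower and Egr1 and Nab2 higher. Nab1 was called in Ctrl over time as well.

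**Figure D4:**
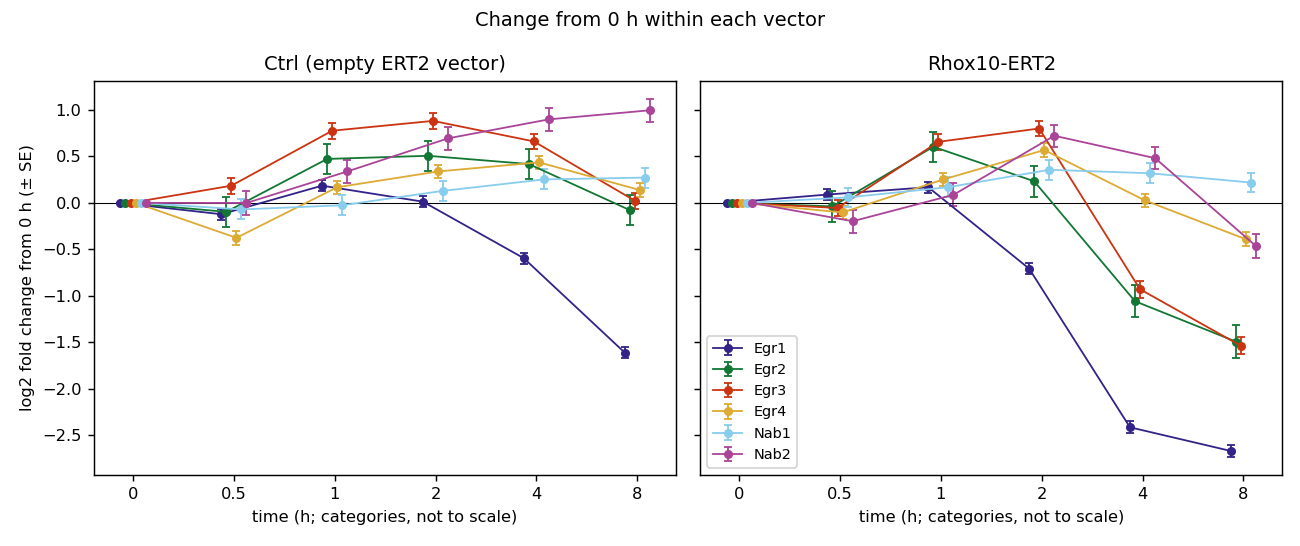
Log2 fold change from 0 h (y axis, bars are standard errors) at each later time (x axis, categories) within Ctrl (left) and Rhox10 (right). In Ctrl only Egr1 ends far below its start, at -1.61, and Nab2 ends at 1.00. In Rhox10 Egr1, Egr2 and Egr3 end at -2.67, -1.49 and -1.54.

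Other immediate-early genes shared part of this course. At 0 h 19 of 27 tested were higher in Rhox10 libraries and 0 lower, with a median log2 fold change of 0.72, unlike the 6 members, whose median was 0.02. Fosb, an AP-1 subunit, was at 1.37, Nr4a2 at 1.29. By the average over 0.5 to 8 h, 12 were higher and 6 lower, with a median of 0.15. In the change from 0 h 18 of 27 were called. At 8 h 3 of 27 were higher and 14 lower, against 8.06% and 8.79% of all genes tested. Fosb was at -1.50 and Nr4a3 at -2.08, while Ier3 was at 1.00, a gene outside the naming rule and chosen after its value was seen. Of the 11 ERK output genes 3 were higher at 0 h and 0 lower. At 8 h 1 was higher, Etv1 at 2.18, and 5 were lower, among them the ERK phosphatase gene Dusp5 at -1.35. In the average 4 of 5 stromal markers were higher in Rhox10 libraries, and of 10 germ cell markers 6 were lower and 1 higher. Of 4 endothelial markers 3 were lower, and of 4 tested Sertoli markers 2 were higher and 1 lower. The part of these markers in the differences was not tested.

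Of the 7 GDNF-responsive genes, 4 were lower at 0 h and 0 higher, and the same was true of the average, with a median of -0.42. The largest averages were those of Lhx1 (-1.002), Bcl6b (-0.88) and Pou3f1 (-0.61). SRF and TCF regulators gave 1 of 6 called at 0 h, Elk3 at 0.71, and 0 of 6 in the change from 0 h by edgeR. Of 13 NuRD subunits 2 were called higher and 5 lower in the average, led by Chd3 at -0.45 and Chd4 at -0.39, the catalytic ATPases, and 0 changed from 0 h by edgeR.

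**Figure D5:**
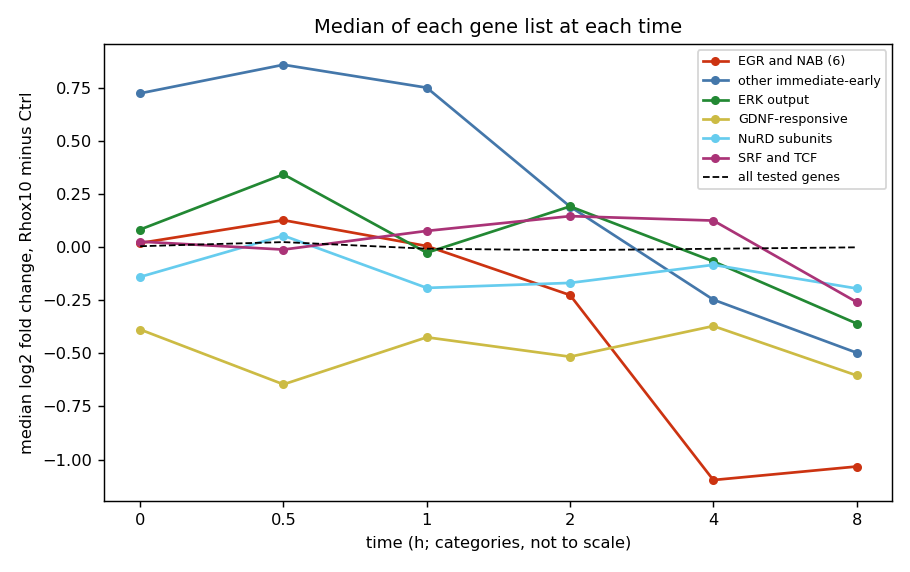
Median log2 fold change of Rhox10 minus Ctrl (y axis) over each gene list at each time (x axis, categories), with all tested genes dashed. The 6 members go from 0.02 at 0 h to -1.10 at 4 h and -1.03 at 8 h, other immediate-early genes from 0.72 to -0.25 and -0.50, and GDNF-responsive genes lie below 0 at every time.

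Across the 24 iSLAM-seq libraries, which share vectors and times, the pattern most like that of Egr3 was Egr2, with a Pearson correlation of log2 CPM of 0.95, of 12059 genes with at least 5 CPM. Next came Pim1 (0.93), a serine/threonine kinase gene, Rfx2 (0.93), a transcription factor gene of spermatogenesis, Tuft1 (0.92) and Slc30a1 (0.91), a zinc exporter gene. The genes most like Egr1 were Dusp1 (0.96), Ankrd1 (0.95), Atf3 (0.94), Fosb (0.93) and Fos (0.93), of which 4 are themselves immediate-early genes. Those most like Nab2 were Fbxo32 (0.91), Jag1 (0.90), Hivep2 (0.90), Zfp229 (0.89) and Skil (0.88). Among the members, Nab2 ran closest to Egr4 (0.79), and Nab1 ran against Egr1 (-0.53), Egr2 (-0.49) and Egr3 (-0.47). These correlations describe shared time courses and carry no p.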

How the data were processed

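Members and gene lists were chosen with earlier results of these data known, which named Egr3 alone of the members, in iSLAM-seq only. The deposited RNA-seq and iSLAM-seq tables give, per the file headers, whole-number counts for each gene and library, with no normalization. For RNA-seq the submitters' processing notes list STAR 2.5.2b, Subread, featureCounts, DESeq2 and GRCm38, for CUT&Tag Bowtie2 2.2.5, SAMtools, HOMER and mm10, and for iSLAM-seq limma 3.42.2 and mm10. The strand setting of counting, the calling threshold of peaks and any use of T-to-C conversions are not given in the sources used here. The peak score is the authors' deposited score per merged peak, per the file headers, and the peaks were merged over the 3 RHOX10 libraries.

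Gene IDs were named by GENCODE M21, and all 55536 matched. Counts were fitted over all genes with edgeR 4.0.16 in R 4.3.3 (filterByExpr, TMM, quasi-likelihood tests, Benjamini-Hochberg, threshold 0.05). RNA-seq was fitted with genotype as its only term, iSLAM-seq with the means of 12 groups. A filter on low counts left 13538 and 20642 genes, and the fits were tested on simulated data. Of each context list at most the 4 largest called changes are named. The 5 genes most like Egr3, Egr1 and Nab2 were taken by correlation of log2 CPM. The germline scaling sets 20 germ cell genes to no net change. Alternatives were DESeq2 1.42.0, other scalings, no filter, leaving out genes that take over 1% of a library, a replicate block and leaving out libraries or the 0.5 h time. Promoter windows are RefSeq's on GRCm38.p6. Intervals of fold changes rest on the model's standard error.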

Additional observations from a re-analysis of the deposited data

Results flagged for a closer look

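In the RNA-seq groups of 4, 1 of the 12 groups of a member's values held a library far from the others: null replicate 4 for Egr3, at 5.79 CPM, with a gap of 0.850 of the group's range below the next library. Chance flags about 1 group in 20. Without it the log2 fold change of Egr3 was 0.31.

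The change from 0 h of the difference between vectors was past the threshold of the F-test for 5 members. Egr3 was known to pass it when the set was chosen, so these values describe the set and test nothing. The edgeR adjusted p was 1.14e-12 for Egr1, 1.35e-09 for Egr3, 1.9e-05 for Egr4, 3.29e-05 for Nab2 and 4.03e-05 for Egr2.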

How the results depend on the processing

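The RNA-seq call of Egr1, Egr4 and Nab2 was the same with DESeq2, its size factors, no filter, genes above 1% of a library removed, the replicate block and each of the 8 fits without 1 library. The scaling moved it: 5 members were called by library totals and 6 with the germline scaling, and Egr2 reversed to 0.33 and 0.85, Nab1 to 0.26 and 0.78 and Nab2, under the germline scaling, to 0.40. Leaving out 1 library gave -0.041 to 0.019 for Egr2, above 0 without null replicate 2. The causes were not tested. Calls over all genes in RNA-seq went from 5071 (2518 higher, 2553 lower) to 7858 by library totals (7229 higher, 629 lower), 12185 under the germline scaling (12111 higher, 74 lower) and 2980 with DESeq2, and from 4468 to 4687 when 1 library was left out. Same-numbered libraries did not deviate together (correlations -0.02 to 0.01 in RNA-seq and -0.06 to 0.06 in iSLAM-seq), so the numbers do not pair them. With the replicate block 3, 1, 6, 5 and 5 members were called in RNA-seq, at 0 h, in the average, in the change from 0 h and in Ctrl over time, as without it, and 5066 genes in RNA-seq.

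In iSLAM-seq, leaving out the 0.5 h time gave 4 members at 0 h, 3764 genes at 0 h, 1496 in the change and 2189 in Ctrl over time, against 2246, 494 and 1184. DESeq2 gave 821 and 1918 for the latter pair and no filter gave 1002 and 2450. Leaving out 1 library gave 1 to 4 members and 1076 to 3819 genes at 0 h, 314 to 4331 genes in the change and 764 to 6099 in Ctrl over time. The highest counts came without a Ctrl 0.5 h library: 3819, 4331 and 6099 without replicate 1 and 3806, 1555 and 2424 without replicate 2. At 0 h 1076 and 1128 genes were called without Ctrl 0 h replicate 1 or 2 and 1327 and 1120 without Rhox10 0 h replicate 1 or 2. The change had 314 without Ctrl 8 h replicate 1, and 314 and 315 without Rhox10 8 h replicate 1 or 2. Ctrl over time had 787 and 764 without Ctrl 8 h replicate 1 or 2. Egr2 was not called in Ctrl over time without replicate 2 of Ctrl 2 h or of Ctrl 8 h. Egr3 kept the 0 h call in 24 of 24 such fits. The Egr4 peak was found under 1 kb and higher-score limits. Depth limits Egr3 and Egr4 in RNA-seq, at 32 to 112 counts.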
